A study of Mus musculus with 79 samples.

Results

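This section describes the effect of losing the nuclear receptor RORα in muscle at a single time of day, ZT12, and sets it beside the effect at the other times. ZT is zeitgeber time, the number of hours after lights on. The comparison is of 3 libraries from mice with a muscle-specific knockout (RORA MKO, at ZT12) with 3 libraries from control mice (RORA CTRL, at ZT12), which the labels call wild type (WT). These are 6 of the 79 libraries of the series and 6 of its 36 RORA libraries. The other 30 RORA libraries are MKO and CTRL mice, 3 of each, at ZT0, ZT4, ZT8, ZT16 and ZT20. By the design text each library is a separate mouse, so the 6 comparisons share no libraries. All 14253 genes of the ZT12 table were examined. The labels name neither the muscle, the age of the mice nor the line that drives the deletion, and anything else that separates MKO from CTRL mice cannot be told apart from the deletion. Values for single libraries were not analysed here, so depth is unknown. In bulk muscle, fewer cells of a type and less RNA per cell cannot be told apart.

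RORα binds as a single molecule to a short DNA element and activates transcription. Its best known target is Arntl, the gene for BMAL1, the activator at the centre of the circadian clock. Nr1d1, the gene for REV-ERBα, encodes a repressor that competes for the same element, while BMAL1 with CLOCK binds E-boxes in the promoters of Nr1d1, Cry and Per genes and closes the loop. In skeletal muscle the clock times genes of fuel choice, mitochondria and contraction.

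Of the 24 clock genes measured, Arntl, Cry1, Nr1d1 and Hlf had an effect at ZT12 that differed from that at the other times, and their promoter windows are therefore considered first. Each window runs from 250 bases before to 50 bases after a RefSeq start on GRCm38.p6, 300 bases in all. Both strands were searched for the RORα and REV-ERBα element TAGGTCA, its variant TGGGTCA, the E-box CACGTG and the D-box TTATGTAA, none of which lies within another. Arntl has 2 windows, and the one at chr7:113207261-113207560 on the plus strand holds TAGGTCA, starting 30 bases after the start. The Cry1 window, at chr10:85185005-85185304 on the minus strand, holds CACGTG, starting 60 bases before the start. Both sequences are shown because, of the windows of these clock genes, they alone hold a match, which capitals mark.
Arntl: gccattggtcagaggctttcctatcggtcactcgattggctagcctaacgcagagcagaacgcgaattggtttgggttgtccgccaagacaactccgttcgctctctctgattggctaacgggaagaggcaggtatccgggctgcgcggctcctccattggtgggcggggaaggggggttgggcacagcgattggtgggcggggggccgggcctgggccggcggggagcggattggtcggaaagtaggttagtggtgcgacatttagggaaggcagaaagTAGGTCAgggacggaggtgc
Cry1: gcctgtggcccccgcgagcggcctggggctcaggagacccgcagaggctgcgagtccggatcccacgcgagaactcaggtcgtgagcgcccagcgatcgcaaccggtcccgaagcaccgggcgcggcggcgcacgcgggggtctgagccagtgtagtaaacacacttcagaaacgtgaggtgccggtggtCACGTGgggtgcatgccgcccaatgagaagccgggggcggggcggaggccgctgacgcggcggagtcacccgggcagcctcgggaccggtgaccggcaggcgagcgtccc
The other Arntl window and those of Nr1d1 and Hlf hold none of these letters. Nor do the windows of Abhd8, Ccrl2 and Nmrk2, which differed at ZT12 and are outside the clock lists. Among all 32851 promoter windows, 2.61% hold TAGGTCA, 3.98% TGGGTCA, 7.15% CACGTG and 0.938% TTATGTAA. Of the 112 genes whose effect differed at ZT12, 86 matched a window by symbol, and 3 of these held TAGGTCA (3.49%), 4 TGGGTCA (4.65%), 11 CACGTG (12.8%) and none TTATGTAA. Among the 10580 measured genes with a window the shares were 2.26%, 4.20%, 11.7% and 0.690%. A match is a description of the letters only.

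The targeted gene was examined first. In the authors' deposited table for ZT12, Rora had a log2 fold change of -1.85 with an error of 0.065 and an adjusted p of 6.2e-178. At the other times the authors' deposited tables give Rora between -1.96 and -1.51, and its effect at ZT12 did not pass the test of a difference from them (difference -0.08, error 0.07, adjusted p = 1.0). Fold changes are MKO over CTRL throughout, and appear to be shrunken towards 0.

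At ZT12, 3147 of 14253 genes were called at an adjusted p under 0.05 in the authors' deposited table (22.1%), of which 1565 were higher (11.0%) and 1582 lower (11.1%) in MKO. By the same rule the authors' deposited tables call 28.1% at ZT0, 29.0% at ZT4, 27.8% at ZT8, 20.7% at ZT16 and 32.2% at ZT20, so ZT12 lies with ZT16 at the low end. Called genes at ZT12 had a median size of 0.232 on the log2 scale, within the 0.225 to 0.248 of the other times, and the median error over all genes, 0.0783, was also within their range of 0.0720 to 0.0822. A size of at least 1 was reached by 189 genes. Most ZT12 calls recurred: 1231 (39.1%) were called with the same sign at all 5 other times, and 255 (8.10%) were called at no other time, where the same share was 9.03% to 17.7% for the other times.

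**Figure D1:**
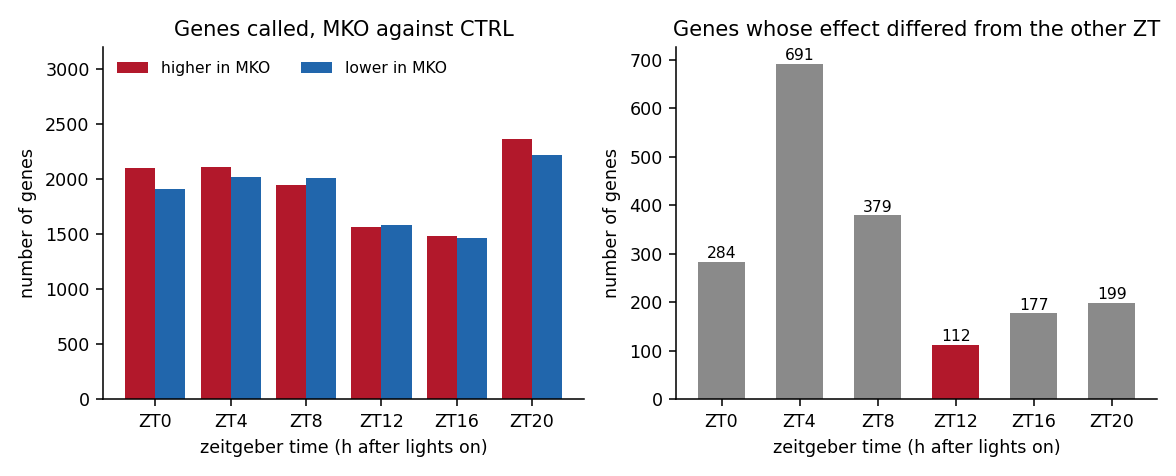
Left, the number of genes called at each zeitgeber time (adjusted p under 0.05 in the authors' deposited tables), split into higher and lower in MKO. Right, the number of genes whose log2 fold change at a zeitgeber time differed from the weighted mean of the other 5 times. ZT12, in red, has the lowest bar on the right, with 112 genes.

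Whether an effect was particular to ZT12 was tested gene by gene. The log2 fold change at ZT12 was set against the inverse-variance weighted mean of the other 5, over their combined error, with a two-sided normal p adjusted by Benjamini-Hochberg over all genes. By this test 112 genes (0.786%) differed, 70 with a more positive and 42 with a more negative value at ZT12. Put through the same test, ZT0 had 284 genes (1.99%), ZT4 691 (4.85%), ZT8 379 (2.66%), ZT16 177 (1.24%) and ZT20 199 (1.40%), so ZT12 had the fewest of the 6. Against single times, ZT12 differed from ZT16 in 54 genes (0.379%), from ZT20 in 125 (0.877%), from ZT0 in 170 (1.19%), from ZT8 in 173 (1.21%) and from ZT4 in 385 (2.70%). The count depends on the error used. When the spread between the other 5 times was added to it, 10 genes passed, among them Ccrl2, Sec14l5, Abhd8, Bex1, Eps8l1, Lrp11, Cavin4, Ranbp10 and Emc7. The other genes described below as differing did not pass in that form. With z values from the deposited p in place of sizes, 189 passed, and 98 of the 112 were among them.

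The 112 genes fall into kinds. In 44 the effect at ZT12 had the sign of the mean of the other times and was greater, in 42 it had that sign and was smaller, and in 26 it had the other sign. Of the 112, by the authors' deposited tables, 76 were called at ZT12 and 49 were called at all 5 other times. ZT12 was the highest or lowest of the 6 times in 107 of them, as the test favours, and in 27.7% of all genes. Only Sec14l5 passed the pairwise test against all 5 other times, 11 genes passed against 4 of them, and 4 genes against none.

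**Figure D2:**
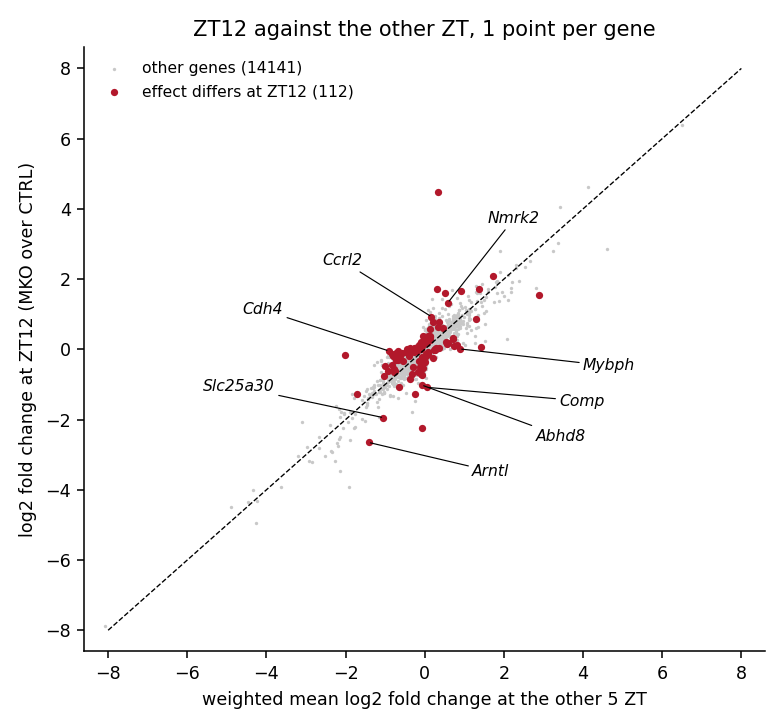
Each point is 1 gene, with the inverse-variance weighted mean log2 fold change of the other 5 times on the x axis and the log2 fold change at ZT12 on the y axis, both MKO over CTRL. The dashed line marks equal values, and the 112 genes that differed at ZT12 are red. Arntl, Slc25a30, Comp and Abhd8 lie below the line, and Ccrl2, Nmrk2 and Cdh4 above it.

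Among the core clock genes the deepest loss at ZT12 was that of Arntl. In the authors' deposited tables Arntl stood at -0.80, -1.21, -2.37, -2.65, -2.36 and -1.26 at ZT0, ZT4, ZT8, ZT12, ZT16 and ZT20, with an error of 0.22 and an adjusted p of 1.3e-32 at ZT12. ZT12 was the lowest of a trough that spanned ZT8 to ZT16. Its difference from the weighted mean of the other times was -1.23 (error 0.23, adjusted p = 5.7e-05). Against single times Arntl passed the test for ZT0, ZT4 and ZT20 but not for ZT8 (adjusted p = 0.99) or ZT16 (adjusted p = 1.0). By z values, which weigh the deposited p and not the size, its difference was 1.01 in units of z, with the sign turned (adjusted p = 0.81). With ZT8 and ZT16 alone as reference the difference of Arntl did not pass.

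Nr1d1, Cry1 and Hlf differed in the other direction, with their smallest loss at ZT12. For Nr1d1 the authors' deposited tables give -0.81, -0.42, -0.60, -0.19, -0.99 and -1.16 from ZT0 to ZT20, and the adjusted p at ZT12 was 0.028. Its ZT12 value was the nearest to 0 of the 6 and lay 0.61 above the mean of the others (error 0.10, adjusted p = 1.0e-05), passing against ZT0, ZT16 and ZT20. Nr1d1 overlaps Thra on the opposite strand, and whether the counting used strand is not given in the sources used here. Cry1, a repressor of the CLOCK and BMAL1 pair, was at -0.95, -1.07, -0.38, -0.32, -0.51 and -0.74 in the authors' deposited tables, and its ZT12 value lay 0.42 above the mean of the others (error 0.09, adjusted p = 0.0010). The neighbours ZT8 and ZT16 did not differ from ZT12 for Cry1 by the pairwise test. Hlf, a transcription factor of the clock's D-box output, read -0.75 at ZT12 and -1.29 to -0.79 elsewhere in the authors' deposited tables, with a difference of 0.29 (error 0.07, adjusted p = 0.019). Hlf lost this call under 6 of the 10 other forms of the test, which used other weights, errors, scales or reference times.

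**Figure D3:**
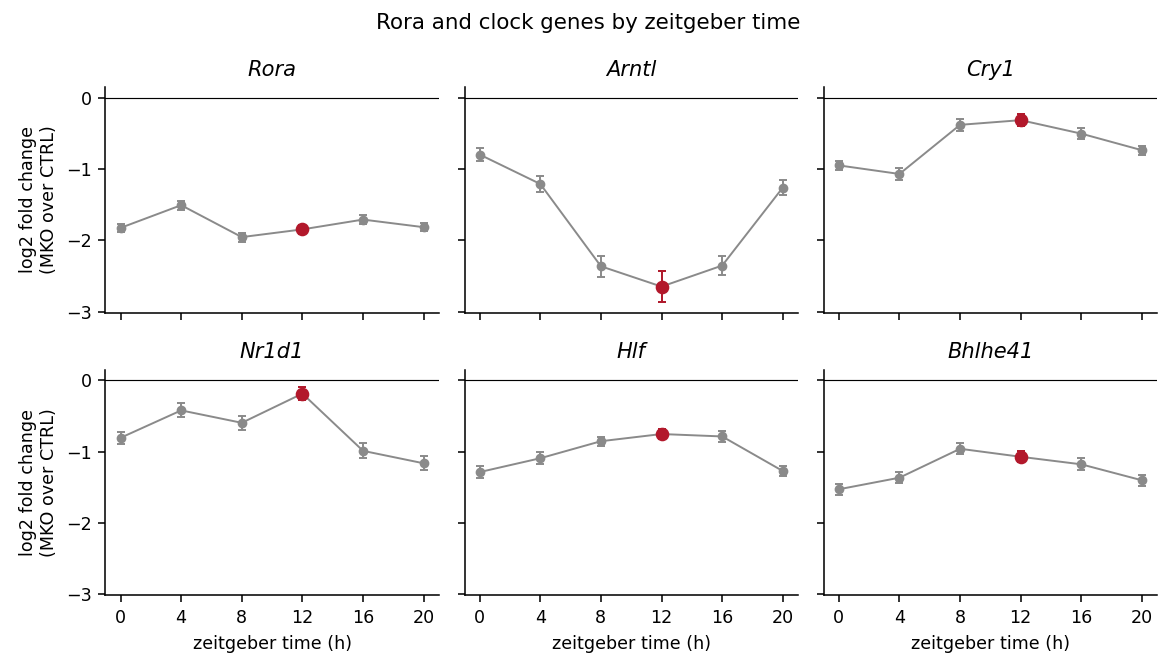
Log2 fold change (MKO over CTRL, y axis) of Rora and 5 clock genes against zeitgeber time in hours (x axis). Points are the authors' deposited values and bars their errors, with ZT12 in red. Arntl is lowest at ZT12 (-2.65), while Cry1 (-0.32), Nr1d1 (-0.19) and Hlf (-0.75) are nearest to 0 there.

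The remaining clock genes did not pass the test of a difference at ZT12. In the list of clock activators and of genes that peak with Arntl, 5 of 8 measured genes were called at ZT12 in the authors' deposited table, 4 lower and 1 higher, beside 22.1% of all genes. Besides Rora, Arntl and Cry1, the lower genes included the bZIP repressor gene Nfil3, at -0.66 (adjusted p = 2.0e-05) in the authors' deposited table. Among 16 repressors and outputs 7 were called there, 6 of them lower. In the authors' deposited ZT12 table the repressor gene Bhlhe41 was at -1.07 (error 0.080), Cry2 at -0.28 and Nr1d2 at -0.20. Tef, like Hlf a D-box factor, was at 0.07 (adjusted p = 0.019) in that deposited table. None of the Per genes was called at ZT12: the authors' deposited table gives 0.10 for Per1, -0.08 for Per2 and 0.04 for Per3. Dbp, at -0.10 (adjusted p = 0.30), was not called at ZT12 but was called at ZT0, ZT4, ZT8 and ZT20 in the authors' deposited tables, between -0.43 and -0.27. The difference for Dbp did not pass (0.22, adjusted p = 0.82), so the missing call is no sign of a difference.

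Several genes carried an effect at ZT12 that was greater than the weighted mean of the other times. Among the rises the smallest p of the difference was that of Ccrl2, an atypical chemokine receptor. It stood at 0.93 at ZT12 (error 0.11, adjusted p = 5.3e-18) and from 0.08 to 0.41 otherwise in the authors' deposited tables. The difference was 0.76 (error 0.11, adjusted p = 1.0e-07) and it held under all 10 other forms of the test. Fam83d, a mitotic spindle gene, was at 0.78 at ZT12 and from -0.03 to 0.43 elsewhere in the authors' deposited tables (difference 0.57, adjusted p = 0.0049). Ift122, of the intraflagellar transport machinery of cilia, read 0.57 at ZT12 and 0.02 to 0.26 elsewhere in those deposited tables (difference 0.45, adjusted p = 0.011). The histone gene H2bc6 was at 0.79 against 0.26 to 0.43 in the authors' deposited tables (difference 0.44, adjusted p = 0.013), and as a member of a near-identical family its reads are uncertain. By the pairwise test Fam83d passed against ZT8 and ZT16 only, Ift122 against ZT0 and ZT20 only, and H2bc6 against no single time. Nmrk2, a muscle kinase of nicotinamide riboside in the synthesis of NAD, had a step and not a peak. In the authors' deposited tables Nmrk2 went from 0.41, 0.10 and 0.32 at ZT0, ZT4 and ZT8 to 1.33, 1.08 and 1.27 at ZT12, ZT16 and ZT20. ZT12 therefore differed from the first 3 times and not from the last 2 (adjusted p = 1.0 for both).

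Deeper losses at ZT12 were also found outside the clock lists. Slc25a30, a mitochondrial carrier, was at -1.95 at ZT12 (error 0.14, adjusted p = 6.7e-44) and from -1.43 to -0.37 elsewhere in the authors' deposited tables. Its difference of -0.90 (error 0.15, adjusted p = 7.2e-06) passed against each time but ZT16. Abhd8, of the alpha/beta hydrolase family, read -1.02 at ZT12 and -0.30 to 0.08 elsewhere in the authors' deposited tables, and held its difference (-0.95, adjusted p = 0.0034) under all 10 other forms. Comp, an extracellular matrix gene of tendon and cartilage, stood at -1.08 at ZT12 (error 0.27) and -0.09 to 0.59 at the other times in the authors' deposited tables (difference -1.15, adjusted p = 0.0071). The tendon matrix gene Fmod, chosen after its values were seen, was also lower at ZT12, by the authors' deposited table at -0.54, while Tnmd (-0.15), Scx (-0.01) and Thbs4 (0.03) were not called. Over the 8 tendon markers 2, Comp and Fmod, were called at ZT12 (25.0%, near the 22.1% of all genes). The median was -0.13, where the other times lay between -0.07 and 0.06. The part of tendon tissue in the Comp value was not tested. Col11a2, a fibrillar collagen gene, was at -0.73 at ZT12 and between -0.49 and 0.02 elsewhere in the authors' deposited tables (difference -0.65, adjusted p = 0.0040). For the transcriptional repressor gene Bcl6 the authors' deposited tables give -0.71 at ZT12, -0.51 at ZT16, -0.33 at ZT0 and between -0.05 and 0.00 at the rest, and its difference (-0.60, adjusted p = 0.044) was lost under 7 of 10 other forms. Rhbdl3, of the rhomboid family, read -0.64 against -0.40 to -0.05 in the authors' deposited tables (difference -0.47, adjusted p = 0.0099).

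A call at ZT12 and at no other time, together with a passed difference, was found in 3 genes. Dok7, an adaptor that activates the receptor kinase MuSK at the neuromuscular junction, was at -0.36 at ZT12 (error 0.080, adjusted p = 1.9e-06) and between -0.14 and 0.10 elsewhere in the authors' deposited tables. The difference for Dok7 was -0.35 (error 0.08, adjusted p = 0.0077). Sec14l5, of a lipid transfer protein family, was at 0.37 at ZT12 (error 0.075) and -0.12 to 0.05 elsewhere in the authors' deposited tables, with a difference of 0.40 (error 0.08, adjusted p = 3.7e-04). Cep85l, a centrosomal protein gene, was at -0.54 at ZT12 (error 0.11) and -0.14 to 0.08 elsewhere in the authors' deposited tables, with a difference of -0.50 (adjusted p = 0.0089). The ranges do not overlap with the ZT12 value in any of the 3, as the rule that chose them favours. Before the difference test was added, 255 genes were called at ZT12 alone, which is why a call by itself was not used.

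**Figure D4:**
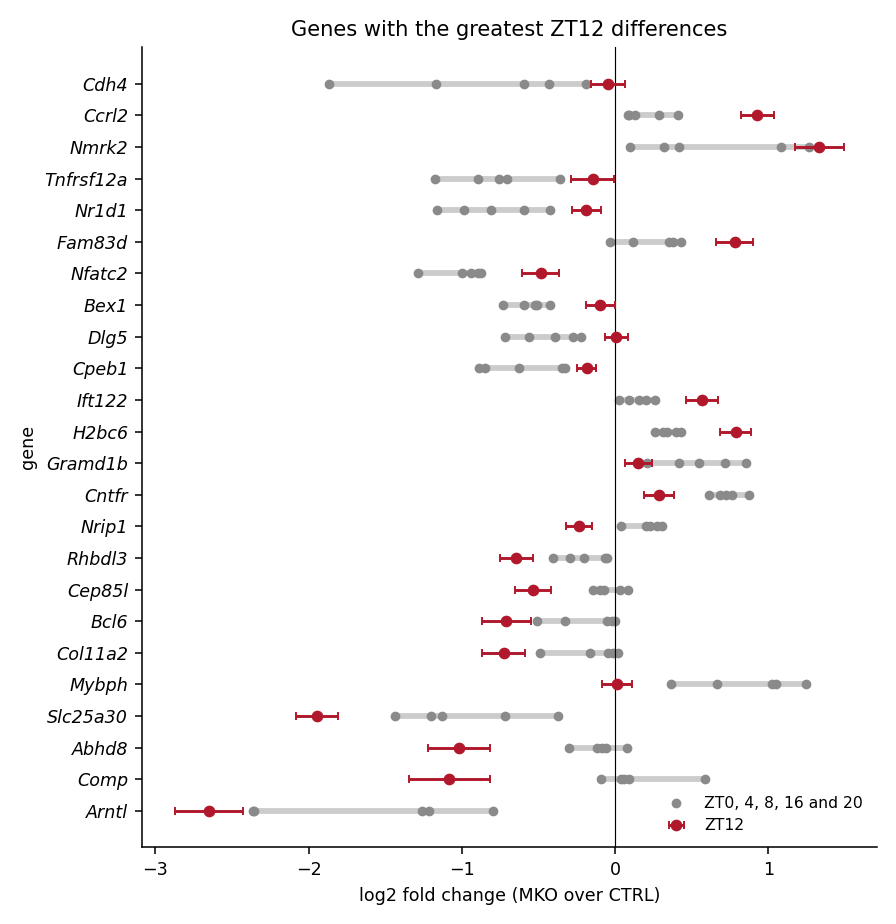
Log2 fold change (MKO over CTRL, x axis) of the 24 genes with the greatest differences at ZT12 among genes over the limit of 50 in mean normalized count, 12 in each direction (y axis). Red points are ZT12 with the authors' deposited error, and grey points the other 5 times. Comp, Abhd8, Slc25a30, Ccrl2 and Fam83d stand outside the grey range, while Mybph, Dlg5 and Cdh4 lie near 0 at ZT12.

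In the reverse pattern, 18 genes were called with 1 sign at the other 5 times, were not called at ZT12 and passed the difference test, 8 of them higher and 10 lower in MKO at the other times. Without the difference test there were 114. Mybph, a myosin binding protein of muscle, was at 0.66, 1.02, 0.37, 1.25 and 1.05 at ZT0, ZT4, ZT8, ZT16 and ZT20 but at 0.01 at ZT12 (error 0.10, adjusted p = 0.92) in the authors' deposited tables. Its difference was -0.88 (error 0.13, adjusted p = 2.2e-08). Plekhh1, under the limit for named genes (a mean normalized count of at least 50) and chosen after its values were seen, had the smallest p of all: the authors' deposited tables give 1.99, 1.69, 1.64, 0.07, 0.60 and 1.17 from ZT0 to ZT20 (difference -1.35, error 0.17, adjusted p = 8.6e-12). Gramd1b, a sterol transfer protein gene, and Deptor, an inhibitor of the growth kinase mTOR, were higher in MKO at each other time and stood at 0.15 and -0.01 at ZT12 in the authors' deposited tables. Deptor differed by -0.25 (adjusted p = 6.2e-04). Por, the electron donor of cytochrome P450 enzymes, read 0.02 at ZT12 and 0.18 to 0.35 elsewhere in the authors' deposited tables (difference -0.25, adjusted p = 0.044). Por kept the call under 4 of the 10 other forms and passed the pairwise test against no single time. Klhl33, also higher at each other time, had a difference of -0.24.

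Among the genes whose loss was missing at ZT12, Tnfrsf12a, the receptor for the cytokine TWEAK, was at -0.15 at ZT12 (error 0.14) and -1.17 to -0.36 elsewhere in the authors' deposited tables (difference 0.68, adjusted p = 0.0039). Klhl8, a ubiquitin ligase adaptor, was at -0.09 at ZT12 and -0.58 to -0.30 elsewhere in the authors' deposited tables (difference 0.34, adjusted p = 9.1e-06). For the scaffold gene Dlg5 the authors' deposited tables give 0.01 at ZT12 and -0.72 to -0.22 elsewhere (difference 0.47, adjusted p = 7.4e-05), and for Bex1 -0.10 and -0.73 to -0.43 (difference 0.47, adjusted p = 0.0057). The Z-disc gene Pdlim3 and the actin-bundling Svil had small effects that were missing at ZT12: by the authors' deposited tables Pdlim3 was at -0.04 against -0.33 to -0.11, and Svil at -0.06 against -0.26 to -0.13. Map3k7cl and Gypc, also lower at each other time, had differences of 0.32 and 0.21. Pdlim3, Map3k7cl and Gypc kept the call under 6, 6 and 5 of the 10 other forms.

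The genes that passed with the spread between the other times added include several below the level or rank needed to be named by rule, and they were chosen after their values were seen. Eps8l1, an actin-regulating adaptor gene, was at -2.24 at ZT12, -0.82 at ZT16 and -0.19 to 0.06 at the rest in the authors' deposited tables (difference -2.18, adjusted p = 3.4e-05). Its mean normalized count was 36.9. Ranbp10 was at 0.34 at ZT12 and 0.06 to 0.13 elsewhere in the authors' deposited tables (difference 0.24, adjusted p = 5.9e-04). Cavin4, a component of muscle caveolae, was at 0.19 against 0.02 to 0.07 in the authors' deposited tables (difference 0.14, adjusted p = 0.0047). Emc7, of the membrane protein insertion complex of the endoplasmic reticulum, was at 0.21 at ZT12 and -0.12 to -0.04 elsewhere in the authors' deposited tables (difference 0.30, adjusted p = 0.0050). Lrp11 was missing at ZT12, by the authors' deposited tables at 0.11 against 0.58 to 0.92 (difference -0.70, adjusted p = 0.0031).

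Smaller but still called losses at ZT12 were seen in Nfatc2 and Cpeb1. Nfatc2, a calcium-regulated transcription factor gene, was at -0.49 at ZT12 and -1.29 to -0.87 elsewhere in the authors' deposited tables (difference 0.52, adjusted p = 0.013). Nfatc2 kept the call under 6 of the 10 other forms. Cpeb1, a regulator of translation through poly-A tails, was at -0.18 and -0.89 to -0.33 in the authors' deposited tables (difference 0.45, adjusted p = 1.2e-07). The cadherin gene Cdh4 was at -0.04 at ZT12 (adjusted p = 0.68) and -1.87 to -0.19 elsewhere in the authors' deposited tables. Its difference of 0.87 (adjusted p = 1.6e-06) passed against ZT0 and ZT20 only, and ZT16, at -0.19, was close to ZT12. Cntfr, the receptor gene for ciliary neurotrophic factor, was raised less at ZT12, by the authors' deposited tables at 0.29 against 0.61 to 0.88 (difference -0.43, adjusted p = 0.012).

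A change of sign was required in a further rule: called at ZT12 in 1 direction and at 2 or more other times in the other. It held for 15 genes, 7 of which passed the difference test. Trim63, the gene for the muscle ubiquitin ligase MuRF1, was higher in MKO at ZT4 (0.12), ZT8 (0.10) and ZT12 (0.19) but lower at ZT16 (-0.32) and ZT20 (-0.18) in the authors' deposited tables. ZT12 was the last time before the sign turned, and Trim63 differed from ZT0, ZT16 and ZT20 but not from ZT4 or ZT8. Nrip1, a corepressor of nuclear receptors also known as RIP140, fell at ZT12 (-0.23, adjusted p = 0.0021) and rose at ZT0 (0.30), ZT4 (0.23), ZT16 (0.20) and ZT20 (0.27) in the authors' deposited tables. Its difference was -0.44 (error 0.09, adjusted p = 6.8e-04), and its ZT12 sign stood against 4 of the 5 other times. Nexn, an actin-binding Z-disc gene, was at 0.14 at ZT12, -0.12 at ZT8 and -0.13 at ZT20 in the authors' deposited tables (difference 0.20, adjusted p = 6.2e-04). The fatty acid dehydrogenase gene Acad11 was at -0.16 at ZT12, 0.11 at ZT0 and 0.14 at ZT20 in the authors' deposited tables (difference -0.22, adjusted p = 0.0038). Tmem140, Uba2 and Lars2, the mitochondrial leucyl-tRNA synthetase gene, had differences of 0.27, 0.16 and -0.21. Uba2 and Lars2 each kept the call under 6 of the 10 other forms. Sun2, also taken by the rule, did not pass (difference 0.12, adjusted p = 0.077).

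Insulin signalling held 3 of the differing genes among 19 measured, where 0.786% of all genes differed. Pik3r1, the regulatory subunit of phosphoinositide 3-kinase, was at -0.50 at ZT12 (error 0.074, adjusted p = 2.7e-12) and at -0.07, -0.04, -0.04, -0.29 and -0.15 at ZT0, ZT4, ZT8, ZT16 and ZT20 in the authors' deposited tables. Pik3r1 differed by -0.39 (error 0.08, adjusted p = 5.5e-04) and passed against each time but ZT16. The receptor substrate gene Irs1 was at -0.35 at ZT12 and -0.26 to 0.19 elsewhere in the authors' deposited tables (difference -0.35, adjusted p = 0.032). The call of Irs1 was kept under 6 of the 10 other forms. Irs2, its homologue, went the other way, with 0.04 at ZT12 and -0.44 to -0.11 elsewhere in the authors' deposited tables (difference 0.29, adjusted p = 0.0071). Of the 19 genes, 7 were higher and 3 lower at ZT12 (52.6% called, beside 22.1% of all genes), with a median of 0.04 where the median of all genes was 0.00. Among glucose and glycogen genes, Pfkfb1, which sets fructose 2,6-bisphosphate, was at -0.14 at ZT12, and at -0.12 at ZT16 and 0.25 at ZT8 in the authors' deposited tables (difference -0.18, adjusted p = 0.013). Stbd1, which tethers glycogen to membranes, was raised most at ZT12, by the authors' deposited tables at 1.73 against 1.17 to 1.49 (difference 0.35, adjusted p = 0.010).

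In mitochondrial groups the ZT12 effect was broad and small, and no member of these lists differed from the other times. Of 38 subunits of complexes II to V, 34 were higher and 1 lower at ZT12 in the authors' deposited table (92.1% called, beside 22.1% of all genes), with a median of 0.17, and the other times had medians of 0.13 to 0.24. The ATP synthase genes Atp5b (0.23) and Atp5o (0.29) are examples from the authors' deposited ZT12 table. Of 36 complex I subunits 21 were higher and 1 lower, with Ndufb5 at 0.34 and Ndufa8 at 0.31 in the authors' deposited table. Among 15 genes of the tricarboxylic acid cycle 13 were higher, Idh3a at 0.34 among them, and the pyruvate carboxylase gene Pcx was lower at -0.69 in the authors' deposited table. For pyruvate dehydrogenase and its regulators 8 of 13 were higher and 2 lower, with the kinase gene Pdk2 at 0.32 in the authors' deposited table. Fatty acid oxidation and the carnitine shuttle had 4 higher and 3 lower genes of 27 (25.9% called, beside 22.1% of all genes) and a median of 0.03, against -0.04 to 0.21 at the other times. In the authors' deposited ZT12 table the carnitine acetyltransferase gene Crat was at 0.31 and the acyl-CoA synthetase gene Acsl1 at -0.34. Of the 27 genes 23 lay below their own mean of the other times, beside 7108 of all 14253 genes, without any passing the test. These genes were measured in the same libraries, so they are not independent. The median of the list was lower still at ZT16, at -0.04.

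Among genes of excitation and contraction the lists differed. Over all genes 11.0% were higher and 11.1% lower at ZT12 (22.1% called), and the counts that follow are to be read against these shares. Of 25 genes of the triad, where calcium release is triggered, 2 were higher and 12 lower at ZT12 in the authors' deposited table (56.0% called), with a median of -0.09. Asph, which encodes junctin and a hydroxylase, was at -0.62 at ZT12 and -0.84 to -0.66 elsewhere in the authors' deposited tables (difference 0.12, adjusted p = 0.034). Bin1, which shapes T-tubules, was at 0.27 at ZT12 and 0.07 to 0.25 elsewhere in the authors' deposited tables (difference 0.12, adjusted p = 0.031). Cacnb1, the beta subunit of the muscle calcium channel, was at -0.06 at ZT12 (adjusted p = 0.16) and 0.01 to 0.16 elsewhere in the authors' deposited tables (difference -0.14, adjusted p = 0.043). Asph, Bin1 and Cacnb1 kept the call under 4, 5 and 5 of the 10 other forms. At the neuromuscular junction 5 of 19 genes were higher and 7 lower (63.2% called), and Dok7, described above, was the 1 that differed at ZT12. Musk, its partner receptor, chosen after its values were seen, was at -0.97 at ZT12 and -0.99 to -0.67 elsewhere in the authors' deposited tables. Fast sarcomere genes were lower in 7 and higher in 1 of 16 at ZT12, with Actn3 at -0.26 and Tnnc2 at -0.14 in the authors' deposited table. Slow sarcomere genes were called in 2 of 15 (13.3%, below the share of all genes), Mybpc1 at 0.46 and Actn2 at 0.45 in the authors' deposited table, and the median of this list was 0.04 at ZT12 against -0.25 to 0.69 at the other times.

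**Figure D5:**
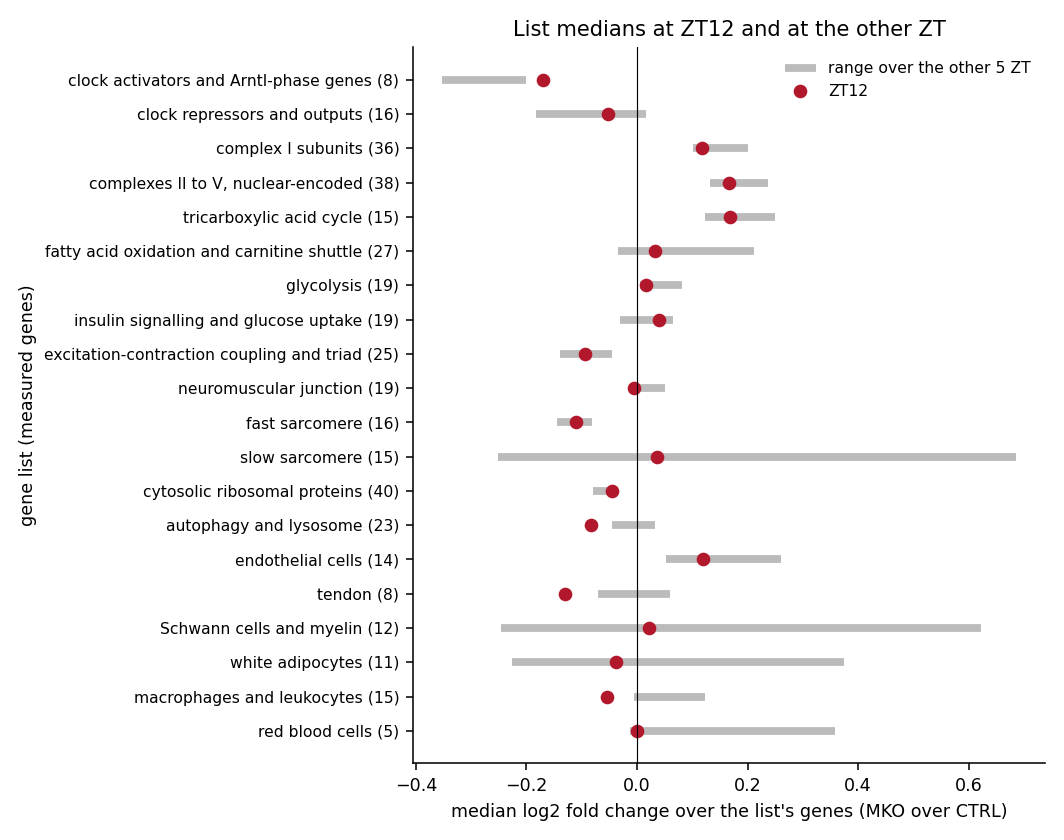
Median log2 fold change (MKO over CTRL, x axis) of 20 gene lists (y axis, with the number of measured genes) at ZT12 in red, and the range of the list's medians over the other 5 times in grey. ZT12 lies within the range for the mitochondrial lists, and near 0 for the lists of Schwann, adipocyte, leukocyte and red blood cell markers.

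Single members of other lists also differed at ZT12. Hspa5, the chaperone BiP of the endoplasmic reticulum, was at -0.23 at ZT12 and -0.16 to -0.01 elsewhere in the authors' deposited tables (difference -0.16, adjusted p = 0.0057), while 6 of 22 genes of the unfolded protein response were lower and 1 higher at ZT12 (31.8% called, beside 22.1% of all genes). Slc38a4, an amino acid transporter gene, fell less at ZT12, by the authors' deposited tables -0.61 against -1.05 to -0.84 (difference 0.33, adjusted p = 0.021). Gadd45a, a stress gene of muscle atrophy, rose less, by the authors' deposited tables at 0.20 against 0.37 to 0.71 (difference -0.33, adjusted p = 0.020). Slc38a4 and Gadd45a each kept the call under 6 of the 10 other forms. Aurka, a mitotic kinase gene, was at 2.08 at ZT12 and 1.62 to 1.82 elsewhere in the authors' deposited tables (difference 0.35, adjusted p = 0.031). The polyamine list had 6 lower and 1 higher of 13 (53.8% called, beside 22.1% of all genes), with ornithine decarboxylase, Odc1, at -1.32 and spermine synthase, Sms, at -0.58 in the authors' deposited ZT12 table, and no member differed.

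Most of the extremes of the ZT12 comparison named here did not pass the test of a difference from the other times. A failed test does not show that the effects were equal. Among genes over the limit of 50 the lowest was Htra4, a secreted protease gene, at -4.94 (error 0.28) in the authors' deposited table, and -4.45 to -3.99 elsewhere. Pla2g7, which encodes a phospholipase that degrades platelet-activating factor, was at -3.91, Stab2, a scavenger receptor gene, at -3.04, Ostn, the gene of the muscle-secreted peptide musclin, at -2.93 and Shc2 at -2.68 in the authors' deposited ZT12 table. Itga4, Odf3l2, Fgfbp1 and Mss51 lay between -2.57 and -2.15 in that deposited table. Of these 10 lowest genes, Arntl included, Arntl alone passed the difference test, though Odf3l2 passed under 3 other forms. At the other end Aurka (2.08), Ighm (1.75), Stbd1 (1.73), Kif26b (1.64) and Rian (1.61) led the authors' deposited ZT12 table, and Aurka and Stbd1 passed the difference test. Both lost that call with z values (adjusted p = 0.50 for Aurka and 0.12 for Stbd1) and with ZT8 left out of the reference. By the pairwise test Aurka passed against ZT8 only. Il15, the gene of a muscle cytokine, was at 1.39 at ZT12 and 1.14 to 1.70 elsewhere in the authors' deposited tables. Nr4a3, an immediate early nuclear receptor gene, was at 1.47 at ZT12, 2.47 at ZT16 and 0.13 at ZT0 in the authors' deposited tables (difference 0.66, error 0.40, adjusted p = 0.94).

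Of 108 marker genes of other cell types 19 (17.6%) were called, with a median size of 0.07, beside 22.1% of all genes, and the same share was 12.0% at ZT16, 28.7% at ZT0 and ZT4, 40.7% at ZT8 and 56.5% at ZT20. None of 12 Schwann cell, 15 leukocyte and 5 red blood cell markers was called at ZT12 in the authors' deposited table. Of 13 B and T cell markers only 2 were measured. Ighm, 1 of these 2, was called higher at ZT12 (1.75), and 1 of the 2 was also called higher at each other time. Of 11 white adipocyte markers 2 were called there, the leptin gene Lep at -0.97 (adjusted p = 0.0013) and the lipase gene Lipe at 0.16 (adjusted p = 0.049). Endothelial markers had 8 of 14 higher, none lower and a median of 0.12, against 0.05 to 0.26 at the other times. Robo4 (0.34) and Cdh5 (0.21) are examples from the authors' deposited table. The tissue label was checked on 12 markers of muscle fibres, all of them measured, with mean normalized counts from 11084 for Ckmt2 to 792710 for Myh4. Myh4 was at -0.01 at ZT12 in the authors' deposited table. Of the 4 sex-linked genes measured none was called at ZT12.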

How the data were processed

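RNA of mouse muscle was sequenced from RORA MKO and CTRL mice, 3 libraries per genotype at each of 6 ZT. Per the labels' protocols, stranded poly-A libraries were made from total RNA. Among the tools in the submitters' processing notes are STAR, Trimmomatic, DESeq2 and R 4.1, and the notes list GRCm39 as well as mm9 without saying which served which step. Which counter was used, and whether by strand, is not given in the sources used here.

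The authors deposited 1 table of comparisons per ZT. Per the file headers, each gene has a signal level (its mean normalized count, identical across the 6 tables), a log2 fold change and its error, a p-value and the adjusted p. Per the labels' sample descriptions, genes were filtered at 10 reads in 3 samples and the log2 fold change is knockout over wild type. Among genes called at ZT12, dividing the deposited log2 fold change by the error gave a median of 0.863 of the z that the p implies, as happens with shrunken values, so sizes may be understated. The tables hold no values per library, so depth is unknown, libraries could not be compared or left out, and precision is that of the authors' error. The 6 PER2 tables of the series were not used here.

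Benjamini-Hochberg values recomputed from the deposited p differed from the adjusted p by at most 1.8e-15. A gene was called at an adjusted p under 0.05. The files give a symbol for 13339 of 14253 genes, and GENCODE M21 supplied names, and nothing else, for 893. The test of a difference at ZT12 is given in the results. It was also run on simulated tables of the same 14253 genes, with 200 genes changed. There it recovered 63 of 75 differences of 0.3, 75 of 75 of 0.6 and 50 of 50 of 1.0 (log2 scale). These counts hold only for the spread put into the simulated tables, and false calls among unchanged genes are not given here. They therefore cannot show how many calls in the deposited tables are right. There the count fell from 112 to 10 when the spread between the other times was added to the error. The test for each other ZT and the pairwise tests serve as context, and the pairwise tests were chosen after seeing the data. The deposited p-values measure the spread between these libraries as modelled by the authors. The p of the difference comes from a normal test on the deposited sizes and errors, so it carries any shrinkage in them. That test combines the errors of the times as if they were independent. Whether the authors fitted all times together is not given in the sources used here. In some genes near 0 at ZT12 the error was smaller there, as for Mybph (0.10, against 0.16 to 0.18 at the other times).

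The members, the 55 gene lists, the tests and the rule for named genes were chosen with earlier results of these data known. By the rule, named genes needed a mean normalized count of at least 50 and a symbol other than a predicted one. It takes Rora, the clock lists, the 10 highest and 10 lowest at ZT12, the 12 highest and 12 lowest differences, up to 8 per direction of the genes called at ZT12 alone or at all times but ZT12, 8 genes with the other sign at 2 or more times, and up to 4 members of each list. A few genes meeting this rule are not reported here. Lists are described by counts and medians beside those of all genes. Alternatives were another threshold, a level filter, z values, an unweighted mean, an added spread between times, a rescaled ZT12, adjacent times alone and the omission of each other time. Python 3.11.15, NumPy 2.4.6, pandas 2.3.3, SciPy 1.17.1 and matplotlib 3.10.9 were used.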

Additional observations from a re-analysis of the deposited data

Results flagged for a closer look

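The knockout effect at ZT12 differed from that at the other 5 times, by the test of the difference itself, in 42 of the genes that were named by rule for their ZT12 pattern. The rule takes most of these from genes that had already passed the test, so the number 42 reflects the rule. With the spread between the other times added, Ccrl2, Sec14l5, Abhd8 and Bex1 alone among them kept the call. Hlf, Por and Bcl6 kept it under 4, 4 and 3 of the 10 other forms of the test. Values below are the log2 fold change at ZT12 minus the weighted mean of the other times. No explanation was weighed.

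Among clock genes the difference was -1.23 for Arntl, 0.61 for Nr1d1, 0.42 for Cry1 and 0.29 for Hlf.

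Genes with a greater loss at ZT12 were Comp at -1.15, Abhd8 at -0.95, Slc25a30 at -0.90 and Col11a2 at -0.65. The same holds for Bcl6 at -0.60, Cep85l at -0.50, Rhbdl3 at -0.47 and Dok7 at -0.35. A greater rise at ZT12 was found for Ccrl2 at 0.76, Nmrk2 at 0.74, Fam83d at 0.57, Ift122 at 0.45, H2bc6 at 0.44 and Sec14l5 at 0.40.

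A rise that was smaller or missing at ZT12 gave -0.88 for Mybph, -0.43 for Cntfr, -0.42 for Gramd1b, -0.25 for Deptor, -0.25 for Por and -0.24 for Klhl33. A loss that was smaller or missing gave 0.87 for Cdh4, 0.68 for Tnfrsf12a, 0.52 for Nfatc2, 0.47 for Bex1, 0.47 for Dlg5 and 0.45 for Cpeb1. It also gave 0.34 for Klhl8, 0.32 for Map3k7cl, 0.21 for Gypc, 0.16 for Pdlim3 and 0.15 for Svil.

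Genes called with the other sign at 2 or more times had differences of -0.44 for Nrip1, 0.25 for Trim63, 0.27 for Tmem140 and -0.22 for Acad11. Those of Lars2, Nexn and Uba2 were -0.21, 0.20 and 0.16.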

How the results depend on the processing

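Genes called at ZT12 numbered 3147, and 2053 when the p was taken from the ratio of fold change to error. Of the 112 genes that differed at ZT12, 62 passed a threshold of 0.01. The count was 189 with z values in place of sizes, 63 with ZT8 and ZT16 alone as reference and 10 with the spread between the other times added to the error. It stayed between 95 and 138 when any 1 other time was left out. Genes called at ZT12 alone numbered 3, and 7 at a threshold of 0.01, 19 with z values and 1 with the added spread. Genes called at the other 5 times but not at ZT12 numbered 18, and 9 at 0.01 and 2 with the added spread. The difference of Arntl was -1.23 on the log2 scale and 1.01 in units of z with z values, the single change of direction among the named genes. Of 54 named genes that differed, 50 lost the call with the added spread, 30 with the adjacent times alone, and 3 to 11 when 1 other time was left out. The causes were not tested. No paired analysis was possible because the tables hold no values per library, and for the same reason no library was left out in turn. Depth is unknown, so its limit on small differences cannot be given.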

Other observations

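Gene groups that the comparisons above do not cover had few members with a ZT12 effect different from that at the other times. Of 45 mitochondrial ribosomal protein genes 14 were higher and none lower at ZT12 in the authors' deposited table, while of 40 cytosolic ribosomal protein genes 10 were lower and none higher. The examples Mrpl37 and Mrpl12 were both at 0.22, and Rps20 was at -0.35 and Rps4x at -0.16 in the authors' deposited ZT12 table. Among 34 proteasome genes 5 were higher and 3 lower, and Psmd8, a subunit of the regulatory lid, was at -1.38 at ZT12 and -1.50 to -1.31 elsewhere in the authors' deposited tables. No member of these 3 lists differed at ZT12. All genes had 11.0% higher and 11.1% lower at ZT12.

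Of 23 genes of autophagy and the lysosome 3 were higher and 10 lower at ZT12 in the authors' deposited table (56.5% called, beside 22.1% of all genes), with a median of -0.08, and the medians at the other times lay between -0.04 and 0.03. In the authors' deposited ZT12 table Ulk2, a kinase that starts autophagy, was at -0.20 and Wipi1, a phagophore protein gene, at 0.27. Fatty acid synthesis genes had 3 lower and none higher of 13 (23.1% called, near the share of all genes), among them the malic enzyme gene Me1 at -0.83 and Srebf1 at -0.67 in the authors' deposited ZT12 table. No member of these lists differed at ZT12 either.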
